A study of Mus musculus with 3 samples.

Results

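The genes described here are 9 that sit in the DNA damage checkpoint of the oocyte, namely Trp63, Trp53, Chek2, Chek1, Atm, Brca1, Brca2, Bbc3 and Pmaip1. They were chosen by function, with no threshold on the values measured here. Earlier results of these data were known when the genes were chosen. Trimethylation of histone H3 at lysine 36 (H3K36me3) was measured over them by native ChIP-seq from very few cells, in which chromatin is cut with micrococcal nuclease and pulled down without crosslinking. The samples form a single group of 3 replicates, each a pool of some 280 oocytes at the germinal vesicle (GV) stage from 25-day-old wildtype mice of the strain C57BL6/Babr, so there was no second condition to compare with. Replicate 2 was made with less antibody than replicates 1 and 3. Every window of 2 kb that overlapped a gene body in the GENCODE M21 annotation of GRCm38 was taken, which gave 258 windows for the 9 genes out of 1186323 valid windows in the genome and 517016 over protein-coding genes.

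Oocytes of the resting follicle are stopped in meiosis for months and carry a checkpoint that removes cells with unrepaired DNA breaks. The kinases ATM and ATR sense the damage and switch on CHK2 and CHK1, and these in turn act on p53 and, in oocytes above all, on TAp63, the long form of p63 made from the upstream start of Trp63. Active TAp63 turns on Bbc3 (PUMA) and Pmaip1 (NOXA), which open the mitochondrial route to apoptosis, while BRCA1 and BRCA2 serve homologous recombination. H3K36me3 is laid down by SETD2 travelling with elongating RNA polymerase II and marks the bodies of transcribed genes. In the growing oocyte it is linked to DNA methylation of those bodies, by a route that the paper proposes may be indirect. H3K4me3 marks promoters and also forms broad domains, and H3K27me3 is the mark of Polycomb repression.

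The level of a gene was the mean RPKM (the authors' name for reads scaled to library depth in windows of a fixed 2 kb) over its windows, calculated in each replicate, so that levels are per length and can be compared between genes. A window was called for H3K36me3 where the mean RPKM of the replicates was above 1. The replicates held 7888140, 2692510 and 3166564 reads in windows, and a value above 1 took 8 reads in replicate 1 and 3 reads in each of the other two. Over the 258 windows there were 4072, 1510 and 1799 reads. All 8 oocyte marker genes had a level above 1 (1.63 to 3.73), against 1 of 7 granulosa cell markers (Nr5a2 at 2.02, with the other 6 from 0.294 to 0.714). Of those 7, 6 carried H3K27me3 in more than 50% of their windows. Among protein-coding genes, 52.5% had a level above 1 and 25.3% carried H3K27me3 in more than 50% of windows. As the chromatin came from pools, fewer oocytes with the mark and less of the mark per oocyte cannot be told apart.

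Promoter sequences around the gene starts are given for Chek2 and Brca1, the highest genes, and for Trp53 and Bbc3. Of these 4, only Bbc3 had H3K27me3 at its start. Each sequence runs 5′ to 3′ on the coding strand from 250 bases before to 50 bases after a RefSeq start (GRCm38.p6). Every CG dinucleotide is in capitals. Most of the Brca1 sequence lies outside the start window of that gene, which ends at 101552000. The sequences lie at chr5:110839733-110840032 on the forward strand, chr11:101551906-101552205 on the reverse strand, chr11:69580109-69580408 on the forward strand and chr7:16309333-16309632 on the forward strand.
Chek2: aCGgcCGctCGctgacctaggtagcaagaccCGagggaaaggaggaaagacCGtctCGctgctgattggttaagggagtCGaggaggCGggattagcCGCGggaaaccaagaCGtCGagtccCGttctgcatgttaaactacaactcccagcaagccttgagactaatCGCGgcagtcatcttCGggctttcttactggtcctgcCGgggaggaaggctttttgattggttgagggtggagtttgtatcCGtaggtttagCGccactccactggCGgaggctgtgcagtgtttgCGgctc
Brca1: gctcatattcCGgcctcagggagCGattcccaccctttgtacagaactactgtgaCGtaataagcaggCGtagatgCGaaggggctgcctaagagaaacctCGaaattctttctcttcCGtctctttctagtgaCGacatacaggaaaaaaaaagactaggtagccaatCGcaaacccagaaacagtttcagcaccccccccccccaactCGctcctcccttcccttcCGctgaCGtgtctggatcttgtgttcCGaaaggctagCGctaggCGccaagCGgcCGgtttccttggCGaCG
Trp53: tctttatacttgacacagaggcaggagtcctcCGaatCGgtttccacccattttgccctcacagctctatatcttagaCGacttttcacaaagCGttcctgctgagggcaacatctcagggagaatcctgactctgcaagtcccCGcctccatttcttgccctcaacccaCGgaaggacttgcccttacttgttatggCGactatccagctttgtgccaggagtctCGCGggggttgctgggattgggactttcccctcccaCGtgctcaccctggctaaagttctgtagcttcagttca
Bbc3: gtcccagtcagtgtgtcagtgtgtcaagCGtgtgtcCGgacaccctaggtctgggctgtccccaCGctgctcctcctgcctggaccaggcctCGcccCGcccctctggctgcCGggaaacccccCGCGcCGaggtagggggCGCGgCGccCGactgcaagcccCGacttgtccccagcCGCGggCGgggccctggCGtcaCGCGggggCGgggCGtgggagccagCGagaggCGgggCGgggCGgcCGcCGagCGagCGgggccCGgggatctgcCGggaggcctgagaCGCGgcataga
Of the 9 genes, 7 matched a promoter in the RefSeq table (all but Trp63 and Pmaip1), with 3 starts for Bbc3. The median of 32851 promoters was 7 CG. The Chek2 sequence held 21 CG, a number reached by 24.8% of promoters, Brca1 19 (28.1%), and Trp53 10 (43.5%). CG was densest in Bbc3, with 34 in the sequence shown (7.73% of promoters) and 30 and 39 at its other starts. Atm held 28, Brca2 25 and Chek1 22. The decamer motif of p53 was searched on both strands as an exact match to its consensus. It was present once in the Trp53 promoter, in none of the other sequences, and in 8.36% of all promoters. Decamers with mismatches to the consensus were not counted. A sequence without a match, that of Bbc3 included, may therefore still hold a p53 site.

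H3K36me3 covered 7 of the 9 genes, and the 2 below the threshold of 1 were the apoptosis effectors Bbc3 and Pmaip1. The same 7 were above 1 in each replicate. Among 21063 protein-coding genes with windows, 52.5% had a mean level above 1 and 46.5% were above 1 in each replicate. A level above 2 was measured for 6 of the 9 genes, against 22.7% of protein-coding genes. The median of the 9 genes was 2.20 RPKM, compared with 1.11 for protein-coding genes (quartiles 0.395 and 1.94). Chek2 was highest, followed by Brca1, Brca2, Atm, Trp63, Chek1, Trp53, Bbc3 and Pmaip1. The 3 lowest, Trp53, Bbc3 and Pmaip1, were also the 3 shortest genes (11.5, 9.8 and 7.0 kb). In a short gene the start window weighs more in the level, and an effect of gene length was not tested. This order was set by the means of the same 3 replicates, so every mean difference between neighbours is positive by construction. Neighbours in this order were called different where the difference in level had the same sign in all 3 replicates and a mean above its SD, which held for 4 of 8 pairs: Brca1 over Brca2, Atm over Trp63, Trp53 over Bbc3 and Bbc3 over Pmaip1. Chek2 and Brca1 (difference 0.17 ± 0.42 RPKM, SD), Brca2 and Atm (0.097 ± 0.194), Trp63 and Chek1 (0.10 ± 0.38) and Chek1 and Trp53 (0.47 ± 0.78) did not differ beyond their spread. With 3 replicates, the exact permutation test used here, which flips the signs of the log2 ratios (two-sided), cannot go below p = 0.25, so no ratio within a gene or between genes could pass 0.05, and the adjusted p of the 7 pairs with a defined ratio ran from 0.58 to 0.75.

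**Figure D1:**
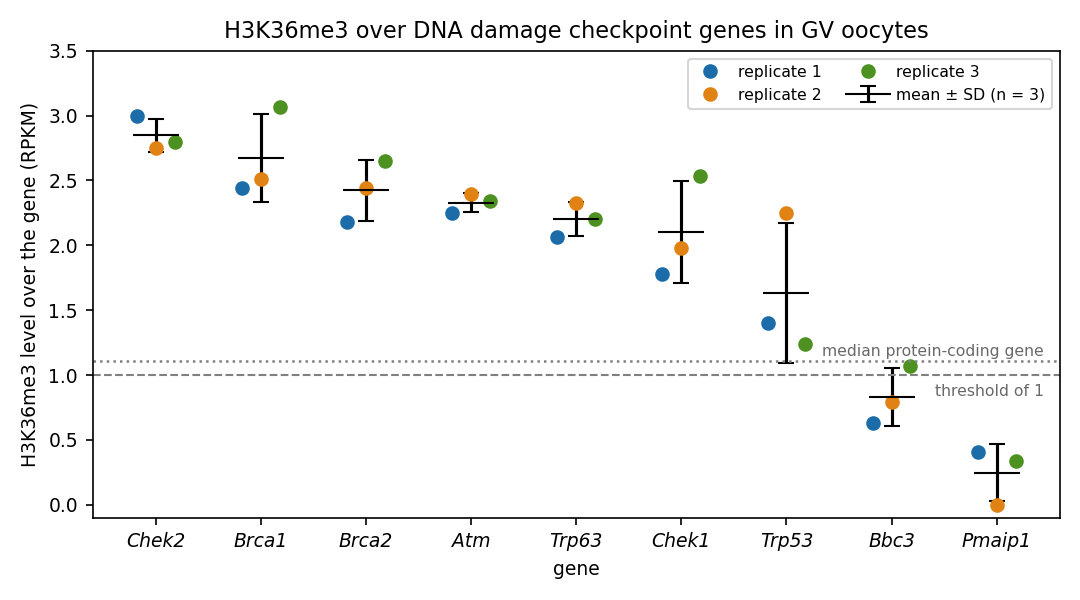
H3K36me3 level of each gene (y axis, RPKM, mean over the windows of the gene) in the 3 replicates (coloured points), with the mean (black line) and SD (bars), in order of level along the x axis. The dashed line is the threshold of 1 and the dotted line the median protein-coding gene (1.11). From Chek2 to Trp53 every point lies above both lines, while Bbc3 straddles the threshold and Pmaip1 lies below it.

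Trp63 is the longest of the genes, at chr16:25683763-25892102 on the forward strand (ENSMUSG00000022510.14, 208 kb, 106 windows). Its level was 2.07, 2.33 and 2.20 RPKM in replicates 1, 2 and 3, a mean of 2.20 ± 0.13 (SD, n = 3) from 1614, 623 and 690 reads, above that of 84.5% of protein-coding genes. The replicates lay close together and all were well above the median gene. H3K36me3 was called in 101 of the 106 windows, and 71 (67.0%) were above 1 in each replicate, compared with 34% of windows over protein-coding genes. The longest unbroken run of called windows spanned 76 kb. One window of an intron is shared with the snRNA gene Gm24928 and another with the pseudogene Gm27005.

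The mark began and ended with the annotated gene. In the 20 kb before the upstream (TA) start the level was 0.56, 0.48 and 0.24 in the 3 replicates (mean 0.42 ± 0.17), and 0 of 10 windows were called. In the 10 windows after the window of that start it was 1.62, 1.98 and 2.03 (1.88 ± 0.23), and 9 of 10 were called. Every replicate was thus higher after the start than any was before it. In the 20 kb beyond the gene end the level was back to 0.50, 0.44 and 0.20 (0.38 ± 0.16), again with 0 of 10 called. These flanks held no other annotated gene. Inside, all 20 complete bins of 10 kb were above 1 in each replicate, with bin means from 1.71 to 2.83, and no bin was as low as the flanks.

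Trp63 has 4 annotated transcripts from the upstream start and 4 from an internal start (ΔN), which lies 118 kb downstream at position 25801916. Transcripts from the upstream start run through the upstream part of the gene and on past the ΔN start, whereas those from the ΔN start lie in the downstream part only. The upstream part (59 windows) had 1.88, 2.36 and 2.10 RPKM (2.11 ± 0.24), with 55 windows called. The downstream part (47 windows) had 2.31, 2.29 and 2.33 (2.31 ± 0.02), with 46 called. The downstream part was higher in replicates 1 and 3 and slightly lower in replicate 2, so the parts overlapped. The ratio of downstream to upstream part was 1.10-fold (log2 0.14 ± 0.17, n = 3, exact permutation p = 0.5), and over 50 kb on either side of the ΔN start the log2 ratio was −0.09 ± 0.27. With the median over windows in place of the mean it was 0.23 ± 0.04 and positive in 3 of 3 replicates (exact permutation p = 0.25, the smallest possible). Against its own flank, by contrast, the upstream part was 5.29-fold higher (log2 2.40 ± 0.70) and the downstream part 6.52-fold higher (log2 2.71 ± 0.71), each in 3 of 3 replicates (exact permutation p = 0.25).

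The 2 starts also differed in their other calls. The window of the upstream start, of which 238 bases lie in the gene, was called for H3K4me3 alone, and its H3K36me3 was 0.815, 0 and 0.338 RPKM in replicates 1, 2 and 3. The next window carried H3K4me3 and H3K36me3 together (2.39 RPKM). The window of the ΔN start was called for H3K36me3 only, at 1.90, 2.38 and 2.37 RPKM (2.22 ± 0.27). No replicate of the upstream start window reached the lowest replicate of the ΔN start window. The ΔN start window lies wholly inside the gene, whereas most of the upstream start window lies before it. Their levels therefore do not compare the 2 starts alone. The 5 windows before the ΔN start had 2.59 ± 1.23 and the 5 after it 1.94 ± 0.45, a difference within the spread, and 0 of these 10 windows were called for H3K4me3 or H3K27me3. H3K4me3 recurred within introns, at 67 to 71 kb, at 163 to 167 kb and at 175 kb from the upstream start (window centres), always together with H3K36me3. Most exon-bearing windows of Trp63 lie near the gene end, where the bins from 180 to 200 kb had the highest means (2.79 and 2.83). Position was not separated from exon content. Exon-bearing windows of Trp63 had 2.41 ± 0.10 and intron-only windows 2.15 ± 0.18, the former being higher in 3 of 3 replicates. This was not general, as exon-bearing windows were higher in 1 of 3 replicates in Chek2 (2.70 against 3.10), Brca1 (2.62 against 2.85) and Brca2, and in 2 of 3 in Trp53, Chek1, Atm and Bbc3.

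**Figure D2:**
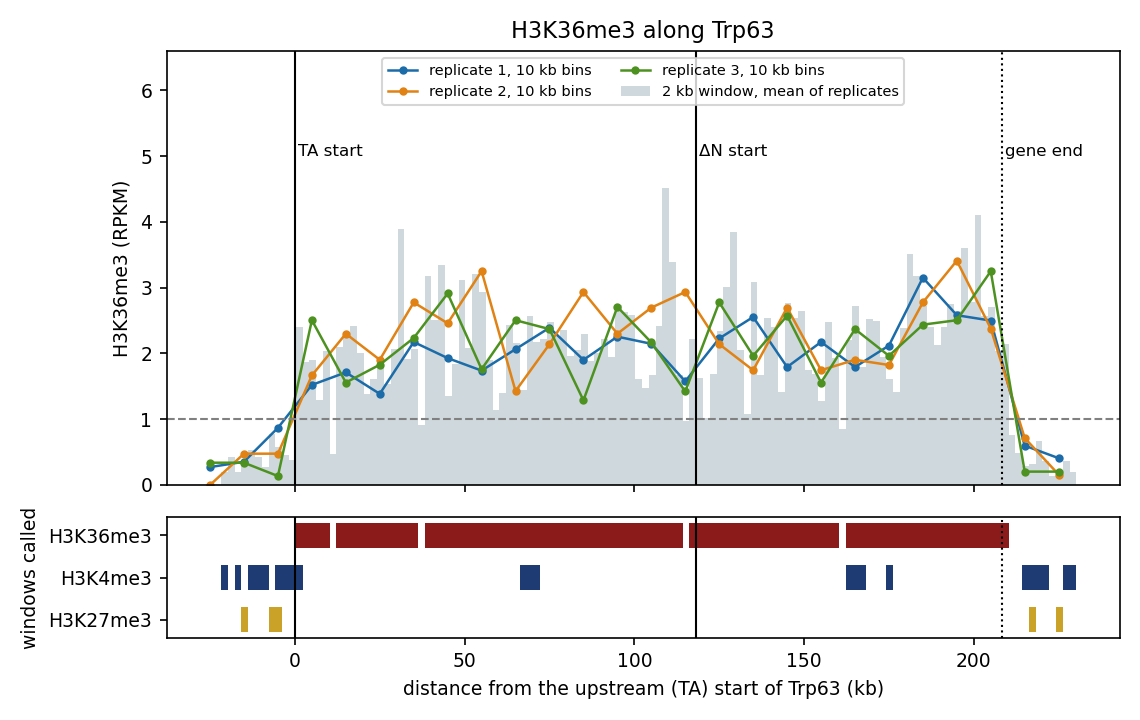
H3K36me3 along Trp63 by distance from the upstream (TA) start (x axis, kb). The upper panel gives RPKM as the mean of the replicates per 2 kb window (grey) and per replicate in 10 kb bins (coloured lines), with the threshold of 1 dashed; the lower panel gives the windows called for each mark. The bins step up at the TA start, stay between 1.71 and 2.83 on average across the ΔN start, and drop past the gene end, and H3K4me3 is called at the TA start but not at the ΔN start.

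The checkpoint kinases were all marked. Atm, which senses double-strand breaks (ENSMUSG00000034218.16, chr9:53439149-53536740, reverse strand, 50 windows), had 2.25, 2.39 and 2.34 RPKM, a mean of 2.33 ± 0.07. It showed the least spread of the 9 genes, and 48 of its windows were called, in an unbroken run of 96 kb. Chek2, the kinase that activates p63 and p53 in oocytes (ENSMUSG00000029521.7, chr5:110839979-110874145, forward strand, 19 windows), had 2.99, 2.75 and 2.80 RPKM (2.85 ± 0.13), above 98.3% of protein-coding genes and 2.58-fold the median one. All 3 replicates were high, and 18 of 19 windows were called. Its start window is shared with Hscb, a gene on the other strand. Chek1, the kinase downstream of ATR (ENSMUSG00000032113.16, chr9:36708482-36727065, reverse strand, 10 windows), had 1.78, 1.98 and 2.54 RPKM (2.10 ± 0.39). Its replicate 3 stood above the other two, and 10 of 10 windows were called, the start window included.

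The recombination genes followed Chek2 in the order. Brca1 (ENSMUSG00000017146.12, chr11:101488764-101551955, reverse strand, 32 windows), whose product helps choose and start repair by recombination, had 2.44, 2.51 and 3.07 RPKM, a mean of 2.67 ± 0.34. Replicate 3 was again the highest, and 31 of 32 windows were called. Brca2 (ENSMUSG00000041147.10, chr5:150522630-150570329, forward strand, 25 windows), which serves repair by homologous recombination, had 2.18, 2.44 and 2.65 RPKM (2.43 ± 0.24) and 24 windows called. Brca1 was above Brca2 in each replicate, by 0.26, 0.073 and 0.41 RPKM, although the replicates of the 2 genes overlapped across samples. In Brca2, 7 of 25 windows are shared with other annotated genes, the antisense gene Gm42529 (4 windows), Gm42531 (3), the snRNA genes Gm25284 and Gm23641, and, at the end, Gm43690 and N4bp2l1.

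Trp53, the tumour suppressor p53 (ENSMUSG00000059552.13, chr11:69580359-69591873, forward strand, 6 windows), had 1.40, 2.25 and 1.24 RPKM, a mean of 1.63 ± 0.54. Replicate 2 stood apart, but it rested on 34 reads (exact Poisson 95% interval 1.56 to 3.14 RPKM), against 62 reads in replicate 1 (1.08 to 1.80) and 22 in replicate 3 (0.78 to 1.88), and the intervals overlap. Trp53 was called in 4 of 6 windows. Its start window is shared with Wrap53, which runs away from it on the other strand.

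The 2 effectors of apoptosis had the lowest levels. Bbc3 (ENSMUSG00000002083.13, chr7:16308393-16318205, forward strand, 6 windows) had 0.63, 0.79 and 1.07 RPKM (0.83 ± 0.22) from 28, 12 and 19 reads. Its only H3K36me3 window was the last, at 1.66 RPKM, next to the end of Sae1, a gene on the opposite strand. With only the windows lying wholly inside the gene the level was 0.589. Pmaip1 (ENSMUSG00000024521.8, chr18:66458533-66465565, forward strand, 4 windows) had 0.41, 0 and 0.34 RPKM (0.25 ± 0.22) from 12, 0 and 4 reads. For the count of 0 in replicate 2, the limit of 3 reads corresponds to 0.297 RPKM. No replicate of Pmaip1 reached the lowest replicate of Bbc3, and Bbc3 was in turn below Trp53 in each replicate, by 0.77, 1.45 and 0.17 RPKM.

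The start of a gene was compared with the rest of its body, as H3K36me3 usually builds up behind the promoter. The start window was below the rest in 3 of 3 replicates in 5 genes, Trp63, Trp53, Chek2, Atm and Brca1, compared with 52.5% of protein-coding genes, and in 4 genes when the next window was added to the start window. In Chek2 the start window had 0.68, 0.79 and 0.68 RPKM and the rest 3.12, 2.86 and 2.91, with no overlap (log2 ratio −2.05 ± 0.18, exact permutation p = 0.25). That window holds only 22 bases of Chek2 and otherwise lies over Hscb and the promoter, and with the next window added to it the log2 ratio was −0.62 ± 0.57 (exact permutation p = 0.5). In Atm the start window had 0.54, 0 and 0.34 and the rest 2.29, 2.44 and 2.38. Brca2 was unlike these, since its start window was at 2.33 ± 0.72 and the rest at 2.43 ± 0.22. In Chek1 the start window ranged from 0.34 to 2.38 over replicates, which covers the 2.18 ± 0.53 of the rest. A single window holds few reads, between 0 and 11 per replicate here, so these windows carry a wide counting error.

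Among the 6 genes of 10 or more windows, the level along the body took different courses. With the windows divided into 3 runs from start to end, the last run was above the first in 3 of 3 replicates in Trp63 (ratio 1.17 ± 0.12), Atm (1.28 ± 0.09) and Brca1 (1.32 ± 0.14). Among protein-coding genes of that size, 50.5% did so. The last run was below the first in each replicate in Chek2 (0.81 ± 0.15) and Chek1 (0.81 ± 0.16). Brca2 showed no common direction (0.95 ± 0.25).

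The body was above the 20 kb on either side in 3 of 3 replicates in 5 genes, Trp63, Chek2, Brca2, Chek1 and Brca1, compared with 42.6% of protein-coding genes. The contrast was greatest in Trp63 (log2 2.55 ± 0.70) and between 0.53 ± 0.27 and 0.76 ± 0.21 in the other four (exact permutation p = 0.25 and adjusted p = 0.33 in each). Around Atm the flanks were as high as the gene (2.33 ± 0.35 against 2.33 ± 0.07 RPKM). On the start side these flanks hold Npat, which shares the start window of Atm and runs the other way. Only 1 of the 20 flank windows was free of annotated genes, so genes other than Npat lie in the flanks too. For Trp53 the log2 ratio was 0.30 ± 0.39. Bbc3 was below its flanks in each replicate (log2 −0.95 ± 0.12), and these hold part of Sae1. With the flank windows of other genes left out, Bbc3 was above its flanks (log2 0.68 ± 0.38) and 8 genes, all but Pmaip1, were above theirs in 3 of 3 replicates, compared with 54.7% of protein-coding genes. The log2 ratio then became 2.41 ± 1.49 in Trp53, 1.25 ± 0.78 in Atm and 1.40 ± 0.70 in Brca2, although only 6, 1 and 2 flank windows were left for these genes. Pmaip1 and its flanks were both low (0.25 ± 0.22 and 0.31 ± 0.13 RPKM).

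The calls for H3K4me3 and H3K27me3 in the deposited table came from GV oocyte libraries the same laboratory had published before, with 1 call per window and no replicates. Over the 258 windows, 237 (91.9%) were called for H3K36me3, 34 (13.2%) for H3K4me3 and 7 (2.71%) for H3K27me3. The shares over all protein-coding windows were 51.2%, 26.2% and 25.9%. H3K27me3 was called in 4 of 4 windows of Pmaip1 and in the first 3 of 6 windows of Bbc3, and in 0 windows of the other 7 genes. No window carried H3K36me3 and H3K27me3 together. Only 7 windows had H3K27me3 at all, and the share of protein-coding windows with both marks is not given here. No conclusion is drawn from this count. H3K36me3 with H3K4me3 was called in 21 windows (8.14%, against 6.55% of protein-coding windows) and H3K4me3 with H3K27me3 in 5 (1.94%, against 8.77%). Calls for different marks in 1 window need not come from the same oocytes or alleles.

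All 9 start windows were called for H3K4me3, compared with 78% of protein-coding genes. The start windows of Bbc3 and Pmaip1 carried H3K27me3 as well (32.9% of protein-coding genes), and those of Chek1 and Brca2 carried H3K36me3 (22.8%). In Bbc3 H3K4me3 was not kept to the start but covered the first 5 of 6 windows, including that of the promoter printed above. Together with H3K36me3 it was called inside Atm in exon-bearing windows centred 42 to 52 kb from the start, and inside Brca1 in windows at 2.95 kb and from 47 to 53 kb. Apart from the start windows, the windows of Atm with H3K4me3 had less H3K36me3 than the others, at 1.94 ± 0.14 against 2.42 ± 0.10 RPKM (log2 −0.32 ± 0.15, lower in 3 of 3 replicates). Much of this lay in 1 window next to the start, at 0.678 RPKM and without an H3K36me3 call, and the 4 windows with both calls had 2.26 ± 0.13 (log2 −0.10 ± 0.10, lower in 3 of 3), a split made after the data were seen. In Trp63 (log2 −0.08 ± 0.19) and Brca1 (log2 0.14 ± 0.33) the direction varied between replicates.

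**Figure D3:**
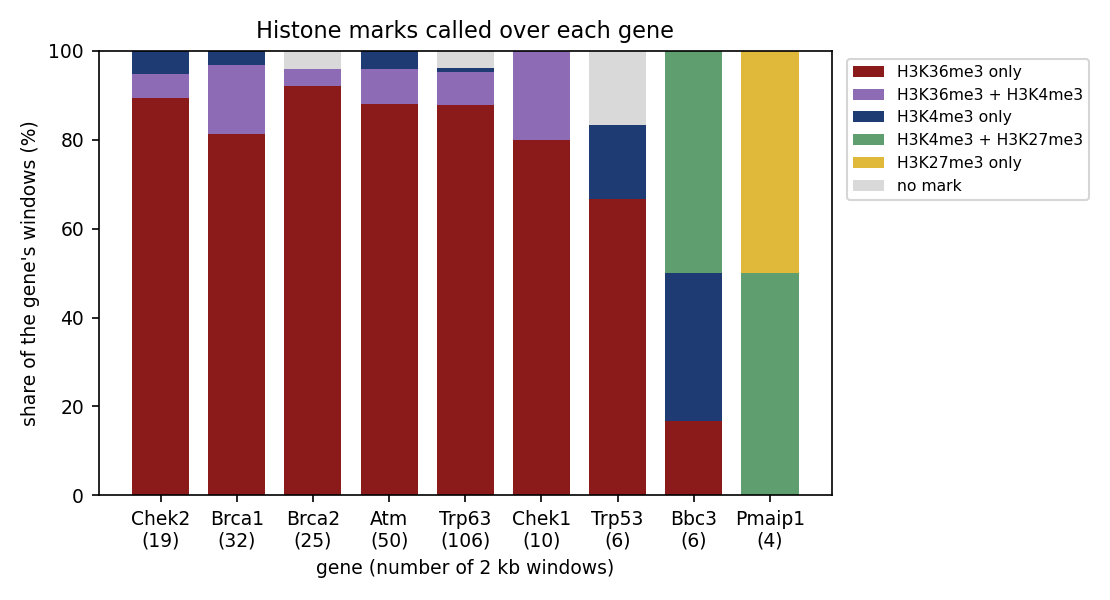
Share of each gene's 2 kb windows (y axis, percent) by the combination of marks called, with the genes in order of H3K36me3 level and the number of windows in brackets. Windows with H3K36me3 alone make up most of every gene from Chek2 to Trp53, and H3K27me3 appears only in Bbc3 and Pmaip1.

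The other genes of the pathway, a list of 44 drawn up by function with earlier results of these data known, were also mostly marked. A level above 1 was measured for 41 of 44 (93.2%, against 52.5% of protein-coding genes), and 38 were above 1 in each replicate. Their median was 2.16 RPKM. The damage sensors and kinases were all above 1 (15 of 15, median 2.22). Highest among them was Topbp1, which activates ATR (2.99 ± 0.21), followed by Hus1 of the 9-1-1 clamp (2.61 ± 0.07) and the nuclease Mre11a (2.51 ± 0.32), and lowest was Nbn, the partner of MRE11 (1.44 ± 0.29). The adaptors at the break were above 1 in 5 of 5, from the ubiquitin ligase Rnf8 (2.56 ± 0.07) down to the histone gene H2afx (1.14 ± 0.45). The partners of BRCA1 and BRCA2 were above 1 in 5 of 5, from the helicase Brip1 (2.69 ± 0.06) to Palb2, which joins the 2 proteins (2.07 ± 0.16).

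Levels below 1 together with H3K27me3 in more than 50% of windows were found in 3 of the 44 listed genes. In the group of the p53 family, its regulators and the cell cycle, 7 of 8 were above 1, led by the phosphatase gene Cdc25b (2.85 ± 0.26). Cdkn1a, the p21 cell cycle inhibitor and a p53 target, had 0.63, 0.20 and 0.11 RPKM (0.31 ± 0.28), with H3K27me3 in 5 of 6 windows. Trp73, the third p53 family gene, lay near the threshold at 1.06 ± 0.12, with 18 of its 43 windows called for H3K36me3 and 20 for H3K27me3. Among the apoptosis genes 9 of 11 were above 1, with the caspase gene Casp2 (2.62 ± 0.15) and the survival genes Mcl1 (2.21 ± 0.25) and Bcl2l1 (2.12 ± 0.03) highest. Below 1 were Bid, a BH3-only gene (0.65 ± 0.18, H3K27me3 in 9 of 14 windows), and Bcl2, a survival gene (0.28 ± 0.07, in 56 of 89). Cdkn1a, Bcl2 and Bid were the 3 listed genes with H3K27me3 in more than 50% of their windows, and Pmaip1 was the only one of the 9 checkpoint genes. Both shares were below the 25.3% of protein-coding genes.

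**Figure D4:**
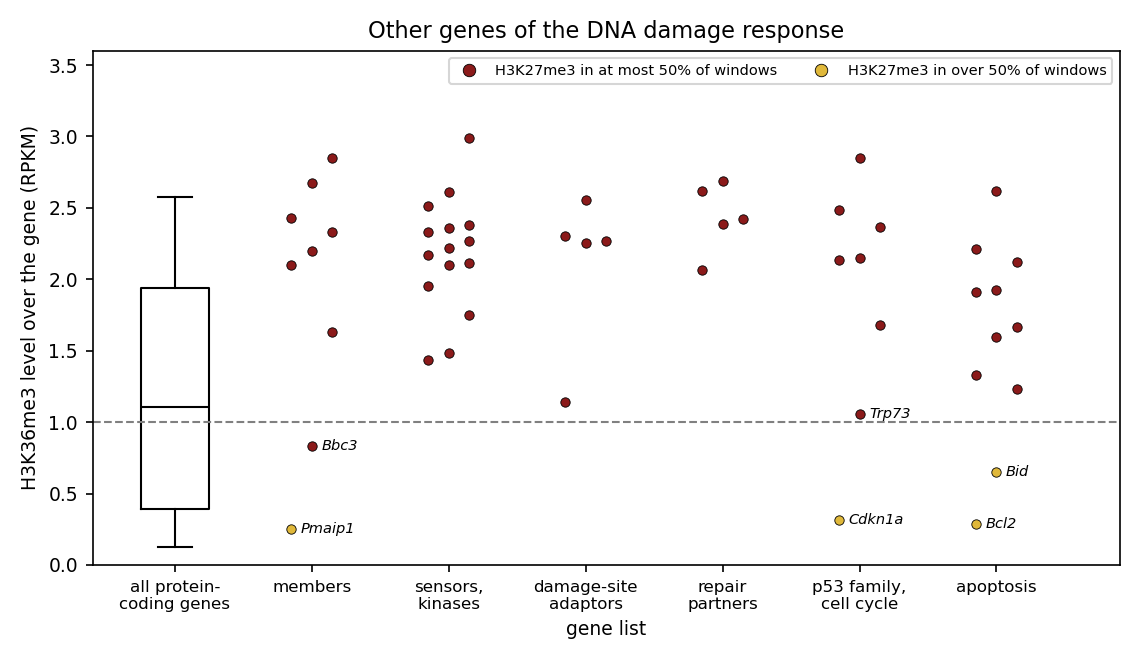
H3K36me3 level (y axis, RPKM, mean of 3 replicates) of the 9 genes ("members") and of the 44 other pathway genes by group, 1 point per gene, beside a box for all protein-coding genes (median, quartiles, whiskers at the 5th and 95th percentiles). Yellow points, with H3K27me3 in more than 50% of windows, are Pmaip1, Cdkn1a, Bcl2 and Bid, and all lie below the dashed threshold of 1.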

How the data were processed

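Values came from a deposited table of RPKM over 2 kb windows, 1 column per replicate, and a deposited table of mark categories per window. Per the study's methods, the authors trimmed and aligned the reads (GRCm38, with Bowtie2 version 2.2.9 per the labels), quantified RPKM over windows in SeqMonk and removed windows with very few or very many input reads. Duplicate removal is not stated, so reads may include PCR copies, and intervals and limits for a count of 0 cover counting error only. Every RPKM value was a whole multiple of 1 read's value (0.136, 0.396 and 0.338 in replicates 1, 2 and 3, with 100% whole within 0.01), so reads were recovered by division. The reads in windows were 1.07 times the library that the step implies if values are CPM, and 2.13 to 2.14 times if they are also divided by window length, so the scale is nearer to CPM. All windows are 2 kb, so ratios are unaffected, and the authors' name RPKM was kept. The H3K36me3 category matched a mean RPKM above 1 with 0 differences.

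Levels, SDs, log2 ratios without a pseudocount and exact permutation tests (two-sided, flipping signs over replicates) with Benjamini-Hochberg adjustment were calculated in Python 3.11.15 (numpy 2.4.6, pandas 2.3.3, scipy 1.17.1), and figures in matplotlib 3.10.9. Scripts were tested on simulated data. No ratio was taken where a replicate was at 0. The replicates are labelled as separate samples, with no statement of separate mice per pool, so the p-values measure the spread between these pools. All 9 genes were named, together with genes sharing their windows, the 3 highest or lowest of each pathway group and genes with H3K27me3 in over 50% of windows. Sae1 was named after its neighbourhood's values were seen. The members and lists were chosen with earlier results of these data known. Alternatives covered the overlap that assigns windows, the median, thresholds, low windows, windows of other genes, flanks, a pseudocount and single replicates left out.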

Additional observations from a re-analysis of the deposited data

How the results depend on the processing

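Of 220 alternatives computed, 208 kept the direction and, for levels and counts, stayed within the spread or 1.5 times. Of 93 that concern log2 ratios, 8 moved the ratio by over 1.5-fold. With only windows wholly inside a gene, 4 windows rather than 7 were called for H3K27me3 and Bbc3 had 0.589 RPKM. With flank windows of other genes left out, 8 genes rather than 5 were above their flanks, and the log2 ratio of Bbc3 turned to 0.68. The log2 ratio between the parts of Trp63 turned to −0.090 over 50 kb on either side of the ΔN start. With the start window and the next as 1 unit, the log2 ratio of start to rest turned to 0.16 in Chek1 and 0.089 in Brca2, that of Chek2 shrank from −2.05 to −0.62, and 4 genes rather than 5 had a lower start. Leaving out 1 replicate turned the sign of log2 ratios in Atm (body to flanks, −0.062 without replicate 1 and −0.016 without replicate 3, range −0.062 to 0.10), Chek1 (start to rest, from −1.01 to 0.0090 without replicate 3, range −1.66 to 0.0090), Brca2 (0.11 without replicate 1, range −0.27 to 0.11) and Bbc3 (−0.32 without replicate 2, range −0.32 to 0.72), and the cause was not tested. Over the 3 sets of 2 replicates, the median level of the 9 genes ran from 2.16 to 2.27 RPKM, the genes above 1 stayed at 7, the pathway genes above 1 ran from 40 to 41, the windows called for H3K36me3 from 233 to 238, and the log2 ratio between the parts of Trp63 from 0.06 to 0.23. The genes above their flanks ran from 5 to 7 and those with a lower start from 5 to 6. Neighbouring pairs with the same sign in each replicate left ran from 5 to 6. That count leaves out the condition on the SD, and agreement of 2 replicates is easier to reach than agreement of 3. Depth limits single windows most, since in replicates 2 and 3 a value above 1 rests on 3 reads. All samples form a single group, so no pairing between conditions was possible, and the ratios were taken within each replicate.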
